A study of Mus musculus with 18 samples.

Results

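The 10 genes described here encode chemokine ligands, the small secreted or shed proteins that direct the movement of leukocytes and of some neural cells. They were taken by name from the table of RNA-sequencing counts, as 10 of its 54838 genes: Ccl2, Ccl7, Ccl5, Ccl20, Cxcl1, Cxcl2, Cxcl5, Cxcl10, Cxcl12 and Cx3cl1. The cells were cultures grown from neural stem cells of wild-type C57BL/6J mouse embryos at E14 (embryonic day 14), and they formed 6 conditions of 3 libraries each. Neurospheres (NSPs) were kept proliferating with EGF in a serum-free medium. The other cultures were differentiated into astrocytes in 10% fetal bovine serum for 24 h, for 72 h or for 1 week, and at 24 h and 72 h further cultures had received TNF at 50 ng/ml. NSPs and differentiated cells thus differ in medium and growth factor as well as in time, and these cannot be told apart. No 1-week culture with TNF was among the samples, so the TNF comparisons stop at 72 h. The labels do not say whether the 3 libraries of a condition came from separate embryos, so the p-values below measure only the spread between these libraries.

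Chemokines are named for the spacing of their first cysteines. The CC ligands Ccl2 and Ccl7 attract monocytes through the receptor Ccr2, Ccl5 attracts T cells and monocytes, and Ccl20 acts on Ccr6. Among the CXC ligands, Cxcl1, Cxcl2 and Cxcl5 attract neutrophils through Cxcr2, Cxcl10 is an interferon-inducible attractant of T cells through Cxcr3, and Cxcl12 guides progenitors and neurons through Cxcr4. Cx3cl1, or fractalkine, is made as a membrane-bound protein, can be cut free by the metalloproteases Adam10 and Adam17, and is read by the microglial receptor Cx3cr1. TNF is known to switch on many chemokine genes through the transcription factor NF-kB, and astrocytes exposed to it are a known source of Ccl2 and Cxcl10.

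On the mm10 build (GENCODE M21 annotation of GRCm38) several of the genes lie close to each other. Ccl2 (ENSMUSG00000035385, chr11:82035571-82037453, plus strand) and Ccl7 (ENSMUSG00000035373, chr11:82045712-82047525, plus strand) are neighbours with 8258 bases between them, and Ccl5 (ENSMUSG00000035042, chr11:83525778-83530518, minus strand) lies on the same chromosome. Cxcl5 (ENSMUSG00000029371, chr5:90759360-90761624), Cxcl1 (ENSMUSG00000029380, chr5:90891241-90893115) and Cxcl2 (ENSMUSG00000058427, chr5:90903871-90905938) follow each other on the plus strand of chromosome 5, with 10755 bases between Cxcl1 and Cxcl2. Cxcl10 (ENSMUSG00000034855, chr5:92346638-92348889) lies on the minus strand of that chromosome and shares exon bases with Art3 on the other strand. Ccl20 (ENSMUSG00000026166, chr1:83116766-83119167), Cxcl12 (ENSMUSG00000061353, chr6:117168535-117181367) and Cx3cl1 (ENSMUSG00000031778, chr8:94772009-94782427), all on the plus strand, stand alone.

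RefSeq promoter sequences on GRCm38.p6, from 250 bases before to 50 bases after the start, were at hand for 6 of the 10 genes: Ccl20, Cxcl1, Cxcl2, Cxcl10, Cxcl12 and Cx3cl1. They were searched on both strands for the NF-kB consensus, for a narrower NF-kB type (GGG, 2 free bases, TTTCC), for the interferon response type (TTTC, 2 free bases, TTTC) and for TATAAA. The 2 NF-kB patterns overlap, since many matches of one also match the other. The stretches before the start that hold matches are shown because they include both a gene that TNF-treated cells transcribed (Cxcl10) and genes that gave few or no reads (Cxcl1, Cxcl2, Ccl20). Each is written 5′ to 3′ on its gene's strand, and capitals mark bases matched by either NF-kB pattern or, in the first capital block of Cxcl10, by the interferon response type. The stretches are chr5:92348980-92349109 for Cxcl10 (minus strand), chr5:90891145-90891194 for Cxcl1, chr5:90903789-90903838 for Cxcl2 and chr1:83116666-83116715 for Ccl20 (plus strand).
Cxcl10: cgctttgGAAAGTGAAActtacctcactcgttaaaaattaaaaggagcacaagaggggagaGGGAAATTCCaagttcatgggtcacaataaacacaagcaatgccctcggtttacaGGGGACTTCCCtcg
Cxcl1: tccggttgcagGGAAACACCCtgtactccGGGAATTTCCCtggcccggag
Cxcl2: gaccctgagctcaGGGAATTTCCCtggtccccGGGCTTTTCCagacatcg
Ccl20: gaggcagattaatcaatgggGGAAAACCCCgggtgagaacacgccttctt

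The NF-kB consensus was found in 4 of the 6 promoters (Ccl20, Cxcl1, Cxcl2 and Cxcl10) and in 8.46% of all 32851 promoters of the same length. The narrower type was in 3 of the 6 (Ccl20, Cxcl1 and Cxcl2), against 1.63% of all promoters. In Cxcl1 and Cxcl2 the longer capital block is the same run of letters, and it begins 71 bases before the start in Cxcl1 and 97 bases before it in Cxcl2. The interferon response type was in Cxcl10 alone among the 6, with its match beginning 213 bases before the start, and in 3.44% of all promoters. TATAAA was in the Cx3cl1 promoter alone and in 13.6% of all, and the Cxcl12 promoter held none of the 4 patterns. These matches describe letters in a window and do not show that a factor was bound there.

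Total counts per library ran from 12509693 to 22549627, with a median of 16794798, and 20067 genes passed edgeR's filter and were tested. As a check of the TNF label, 4 of 6 listed NF-kB response genes passed the filter, and all 4 (Nfkbia, Tnfaip3, Nfkb2 and Relb) were called higher with TNF at both times, by 1.15 to 3.44 on the log2 scale. All 8 astrocyte markers and all 4 neural stem cell markers had reads in every condition. The stem cell marker Prom1 was near the limit of detection, with 2 to 5 reads per library in NSPs and 0 to 6 at 24 h. With TNF 1 of the 8 astrocyte markers was called lower at 24 h (Aldoc, log2 -0.65) and 3 at 72 h (Gfap at -2.31, Aldoc at -1.57 and S100b at -1.64), and none was called higher. The median log2 difference of the 8 was -0.19 at 24 h and -0.89 at 72 h, against -0.01 for all genes tested at both times, and its part in the ligand results was not tested. Without the first TNF library of that time the 24 h call of Aldoc was lost (-0.53, edgeR adjusted p = 0.151), and at 72 h the same 3 were called, with Gfap at -3.44. The first TNF library at each time stood apart from the other two on the third principal component of the 1000 most variable genes, at 21.5 against -0.278 and 0.804 at 24 h and at 31.6 against 18.4 and 17.8 at 72 h. Where leaving out the first TNF library changed a call made with TNF for a gene named here, the value without it is given.

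Of the 10 ligands, 5 had enough reads to be tested (Ccl2, Ccl7, Cxcl10, Cxcl12 and Cx3cl1) and 5 were too low (Ccl5, Ccl20, Cxcl1, Cxcl2 and Cxcl5). Compared per length, as CPM (read counts scaled by library size) per kb of exon, Cx3cl1 was the highest of the 10 in every condition, and its range overlapped that of no other ligand. Its mean was 8.45 CPM per kb in NSPs, and without TNF it was 32 at 24 h, 12.5 at 72 h and 28.1 after 1 week. With TNF it was 50 at 24 h and 32.3 at 72 h. The second place changed with the condition. Ccl2 held it in NSPs (0.802 CPM per kb), with TNF at 24 h (22.8) and without TNF at 72 h (1.2), Cxcl10 held it with TNF at 72 h (4.86), and Ccl5 held it without TNF at 24 h (0.592) and 1 week (0.397). In NSPs the ranges of Ccl2 and the next gene, Ccl7, overlapped, as did those of Ccl2 and Cxcl10 at 72 h with and without TNF, so these orders are within the spread between libraries.

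The make-up of the ligand pool, as shares of the summed CPM per kb of the 10 genes, shows the same change in another way. Cx3cl1 made up 95.6% to 97.7% of the pool in the 24 h libraries and 96.6% to 97.8% in those of 1 week. With TNF at 24 h its share was 45.5% to 69.2%, and Ccl2 made up 22.2% to 39.9%. With TNF at 72 h the share of Cx3cl1 was 75% to 77.8%, that of Cxcl10 7.5% to 14.5% and that of Ccl2 7.41% to 10.9%. Untreated cells at 72 h already differed from those at 24 h, with Cxcl10 at 6.71% to 7.64% and Ccl2 at 5.41% to 10.6%.

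**Figure D1:**
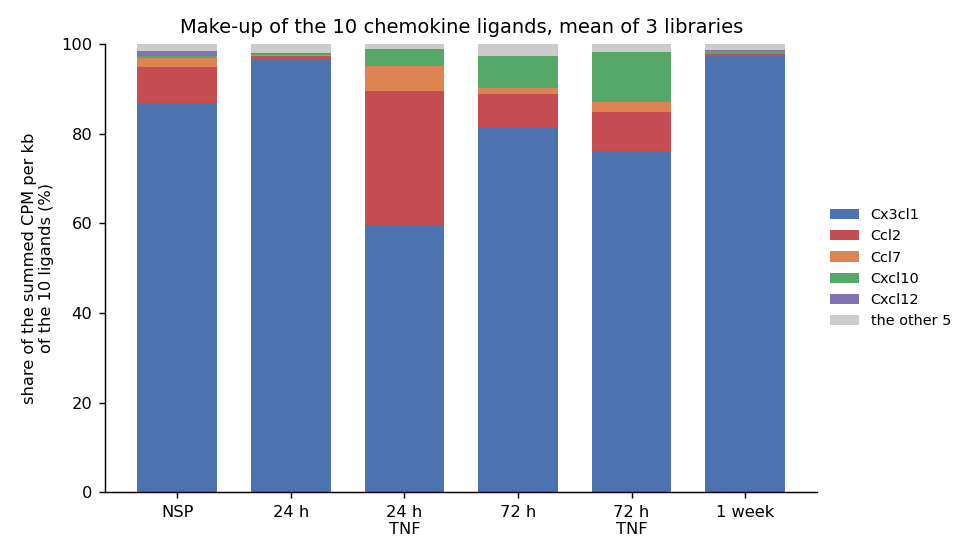
Stacked bars give each ligand's mean share (%) of the summed CPM per kb of the 10 ligands in each of the 6 conditions, 3 libraries each, with the 5 ligands too low to test joined in grey. Cx3cl1 averaged 96.7% at 24 h and 59.6% with TNF at 24 h, where Ccl2 averaged 29.9%.

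The first question the design poses is how differentiating cells change with TNF at 24 h. The monocyte attractants Ccl2 and Ccl7 and the T cell attractant Cxcl10 were many times higher with TNF, whereas Cx3cl1 and Cxcl12 did not pass the test. Thus 3 of the 5 tested ligands were called higher and none lower, where 2.18% of the 20067 genes tested were called higher and 1.32% lower. Ccl7 reached 10 reads only in TNF libraries and passed the filter through them. Ccl2 and Cxcl10 also had more than 10 reads in every untreated 72 h library. At 24 h the reads of all 3 fell mainly in the TNF libraries, so this count is a description. The same 3 were called with DESeq2.

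Ccl2 had 2, 2 and 6 reads in the untreated 24 h libraries and 399, 380 and 415 in those with TNF. The groups were far apart, and the 3 treated libraries lay close together, at 25.1, 28.3 and 24.5 CPM. This was a log2 fold change of 6.75 ± 0.43 (SE), or 108-fold (edgeR's quasi-likelihood test with Benjamini-Hochberg adjustment, adjusted p = 3.5e-08). It was 6.76 without the first TNF library (edgeR adjusted p = 7.75e-08) and 7.56 without the third untreated one (edgeR adjusted p = 4.22e-07).

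Ccl7, the neighbour of Ccl2 with which it shares a receptor, had 0, 1 and 2 reads without TNF and 49, 48 and 60 with it. With only 3 reads in the untreated group, the ratio of the summed reads, scaled for library size, was 49.1, with an exact 95% interval of 16.5 to 241 that covers counting error only. The edgeR log2 fold change was 5.47 ± 0.65 (SE), with an adjusted p of 5.22e-05, and it was 6.41 without the third untreated library (edgeR adjusted p = 0.000393) and 5.51 without the first TNF one (edgeR adjusted p = 0.000114). In these treated libraries Ccl2 had 8.14, 7.92 and 6.92 reads for each read of Ccl7, a narrow range.

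Cxcl10 had 0, 0 and 4 reads without TNF and 123, 67 and 106 with it. The untreated level was near the limit of detection and rested on the third library, in which all 4 reads fell. The log2 fold change was 5.97 ± 0.63 (SE; edgeR adjusted p = 1.31e-05). It was 9.70 without that library, a value set by the fit against 0 reads, and 5.26 without the second untreated library, and it was called in both. Without the first TNF library it was 5.79 (edgeR adjusted p = 4.46e-05). Art3, whose exons overlap Cxcl10 on the opposite strand, averaged 19.7 CPM without TNF and 15.4 CPM with it. The counting step's strand setting is not given in the sources used here, so reads of the 2 genes may not be fully separated, and the part of Art3 in the result was not tested.

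**Figure D2:**
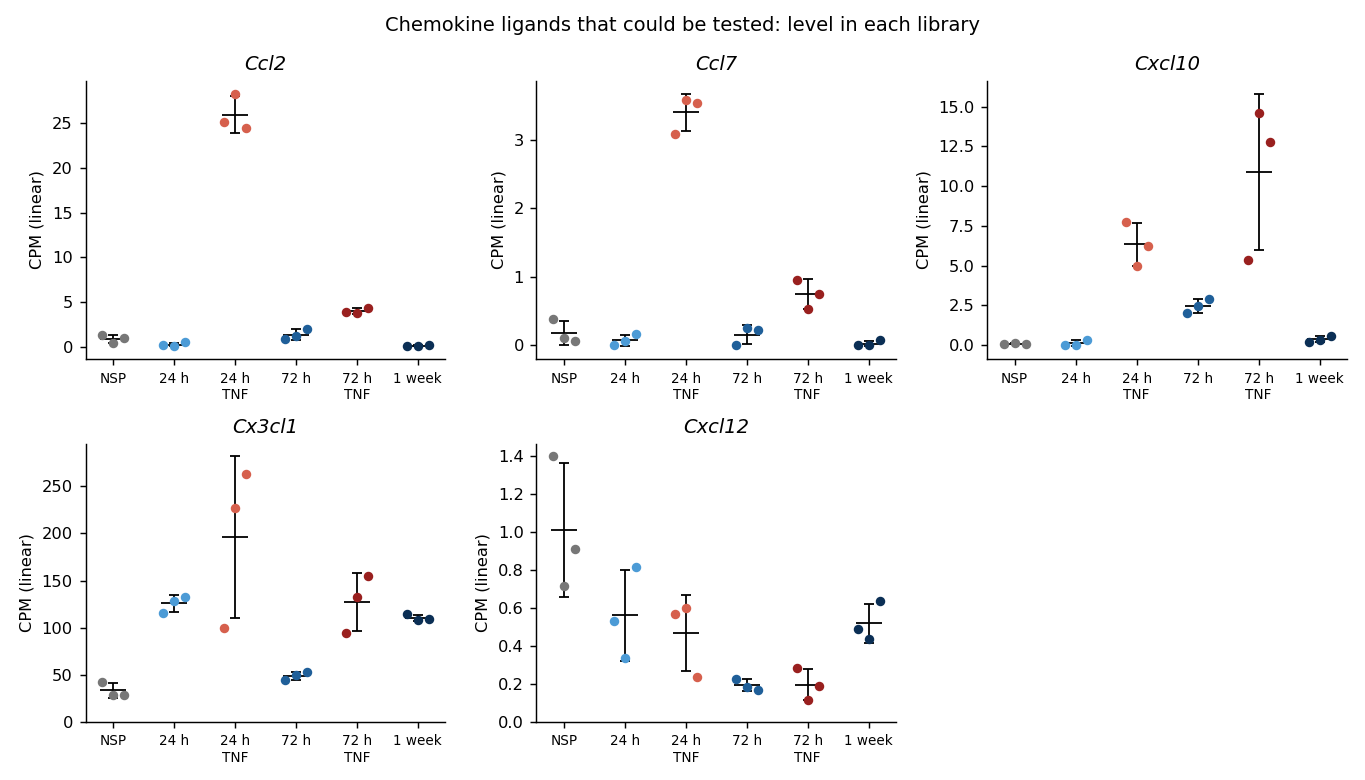
CPM of the 5 ligands that could be tested, on a linear axis per gene, in each library of the 6 conditions. Points are libraries, and the bar and whiskers are the mean ± SD of 3. Ccl2 lay between 24.5 and 28.3 CPM with TNF at 24 h and at or below 4.38 CPM in every other library.

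Cx3cl1 started from a high level and moved less. It had 1538, 2293 and 1633 reads without TNF at 24 h (116, 128 and 133 CPM) and 1574, 3042 and 4462 with it (99.1, 227 and 263 CPM). The first TNF library lay below every untreated one and the other two lay above, so the groups overlapped. Over all 3 libraries the log2 fold change was 0.64 ± 0.25 (SE) and was not called (edgeR adjusted p = 0.219). With single libraries left out it ran from 0.37 (edgeR adjusted p = 0.548), without the third TNF library, to 0.94 (edgeR adjusted p = 0.00521), without the first TNF one, and the latter was the only call in these 6 refits. That library also differed in other genes, with 243 reads of the lysosomal gene Cd68 against 61 and 81, and 198 of the protease gene Mmp2 against 22 and 48. These 2 genes were chosen after their values were seen, and their part in the result was not tested.

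Cxcl12 was low in all these cultures. It had 7, 6 and 10 reads without TNF at 24 h and 9, 8 and 4 with it, in overlapping groups. The log2 difference was -0.24 ± 0.45 (SE; edgeR adjusted p = 0.893). No difference in Cxcl12 was found at this depth, and the sign turned when the third library of either group was left out.

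At 72 h, 4 of the 5 tested ligands were called higher with TNF (Ccl2, Ccl7, Cxcl10 and Cx3cl1) and none lower. Of all genes tested, 4.35% were called higher and 5.21% lower. Ccl7 passed the filter through the 24 h TNF libraries, so this count too is a description. The fold values of Ccl2, Ccl7 and Cxcl10 were smaller than at 24 h. Ccl2 was lower in treated cells at 72 h than at 24 h, and untreated cells had more Ccl2 and Cxcl10 at 72 h. DESeq2 called the same 4.

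Ccl2 had 11, 20 and 37 reads without TNF at 72 h and 70, 65 and 70 with it. The lowest treated library, at 3.77 CPM, was above the highest untreated one, at 2.04 CPM. The log2 fold change was 1.53 ± 0.34 (SE; edgeR adjusted p = 0.00611). Without the first TNF library it was 1.54 (edgeR adjusted p = 0.011).

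Cxcl10 had 27, 40 and 53 reads without TNF and 95, 252 and 205 with it. The range of 5.35 to 14.6 CPM in treated cells overlapped that of 5 to 7.75 CPM with TNF at 24 h. The first treated library, at 5.35 CPM, lay well below the other two, at 14.6 and 12.8 CPM, yet above all untreated ones. The log2 fold change was 2.13 ± 0.39 (SE; edgeR adjusted p = 0.00129), and without that library it was 2.47 (edgeR adjusted p = 0.000153). Art3 on the opposite strand averaged 26.3 CPM without TNF and 11.8 CPM with it.

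Cx3cl1 had 587, 817 and 954 reads without TNF at 72 h and 1670, 2272 and 2470 with it. The groups did not overlap. The log2 fold change was 1.37 ± 0.26 (SE; edgeR adjusted p = 0.00163), and 1.55 without the first TNF library (edgeR adjusted p = 0.000748).

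For Ccl7 the difference at 72 h rested on few reads, 0, 4 and 4 without TNF and 17, 9 and 12 with it. With only the 72 h groups in the fit it did not pass the filter, and 3 ligands were called. The log2 fold change was 2.12 ± 0.63 (SE; edgeR adjusted p = 0.0404). The call was lost when any library but the second TNF one was left out, with adjusted p-values of 0.0442 to 0.128 over the 6 refits, and it is the least stable of the 4. Without the first TNF library it was 1.89 (edgeR adjusted p = 0.128). Cxcl12 had 3, 3 and 3 reads without TNF and 5, 2 and 3 with it, too few to show a difference (log2 difference 0.05 ± 0.60 SE, edgeR adjusted p = 0.974).

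**Figure D3:**
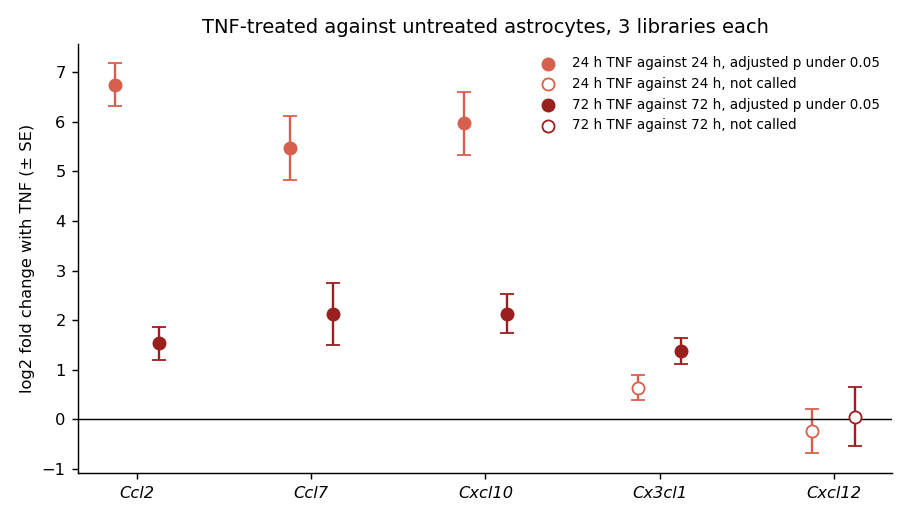
Log2 fold change with TNF (points, ± SE) of the 5 tested ligands at 24 h and at 72 h, each from 3 treated against 3 untreated libraries. Filled points have an edgeR adjusted p under 0.05. The 24 h value was 6.75 for Ccl2 and 5.97 for Cxcl10, and the 72 h values were 1.53 and 2.13.

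Whether the TNF difference itself changed between 24 h and 72 h was tested as the interaction of treatment and time. Of the 5 tested ligands, 2 were called with a smaller TNF difference at 72 h, against 0.324% of all genes tested called in that direction. The ligands were chosen with earlier results of these data known, so this count is a description. The change was -5.23 ± 0.57 (SE) on the log2 scale for Ccl2 (edgeR adjusted p = 0.000255) and -3.84 ± 0.82 (SE) for Cxcl10 (edgeR adjusted p = 0.0444). For Cxcl10 the call was lost when any of 8 single libraries was left out, with adjusted p-values up to 0.17. Over all 12 such refits the value ran from -7.56, without the third untreated 24 h library, to -3.12. With a replicate block in which the third 72 h library was unpaired, the edgeR adjusted p was 0.146. Ccl7 (-3.35 ± 1.09, edgeR adjusted p = 0.245), Cx3cl1 (0.73 ± 0.36, adjusted p = 0.513) and Cxcl12 (0.28 ± 0.76, adjusted p = 0.918) did not pass.

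The 2 groups kept with TNF were also compared with each other. From 24 h to 72 h Ccl2 fell by 2.69 on the log2 scale (SE 0.30, edgeR adjusted p = 2e-05). Ccl7 fell by 2.18 (SE 0.43, edgeR adjusted p = 0.00275), where 7.93% of all genes tested were called lower. Ccl7 passed the filter through the 24 h TNF libraries, the higher group here, so its call is a description. Cxcl10 was not called (0.78 ± 0.36, edgeR adjusted p = 0.171), but without the first 72 h TNF library it was called higher, at 1.14 (edgeR adjusted p = 0.0292). Per kb of exon, Ccl2 was at 22.1, 24.9 and 21.5 CPM with TNF at 24 h and Cxcl10 at 3.44, 2.22 and 2.78, with Ccl2 above in every library. At 72 h Ccl2 was at 3.47, 3.31 and 3.85 and Cxcl10 at 2.38, 6.49 and 5.7 CPM per kb, so that Ccl2 was still above in the first library and below in the other two. Cx3cl1 was not called (-0.63 ± 0.25, edgeR adjusted p = 0.108), and with single libraries left out it ran from -0.91 (edgeR adjusted p = 0.00137), called without the first 24 h TNF library alone, to -0.36 (edgeR adjusted p = 0.469).

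The second question is how the ligands change as NSPs are differentiated in serum without TNF. In this course most genes were called, so a call is common: 52.7% of genes tested were called in either direction at 24 h against NSPs, 55.3% at 72 h and 58.6% after 1 week. Of the 5 tested ligands, 2, 2 and 4 were called at these times.

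Cx3cl1 had 667, 522 and 504 reads in NSPs and was higher in all 3 libraries at 24 h, by 1.92 ± 0.26 (SE) on the log2 scale (edgeR adjusted p = 8.63e-06). It then fell by 1.36 from 24 h to 72 h (SE 0.26, edgeR adjusted p = 0.000677) and was higher again at 1 week, by 1.17 ± 0.26 (SE, edgeR adjusted p = 0.00802), with 2592, 1975 and 1544 reads. The levels were thus high at 24 h and 1 week and low in NSPs and at 72 h. At 72 h it was 49 ± 4.15 CPM (SD, n = 3), which was not called against 33.2 ± 7.89 CPM in NSPs (log2 0.56 ± 0.26 SE, edgeR adjusted p = 0.0705). Leaving out the first NSP library brought that value to 0.77 (edgeR adjusted p = 0.0303).

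Cxcl10 was higher at 72 h than at 24 h and lower at 1 week than at 72 h, the opposite of Cx3cl1 in these steps. It had 1, 2 and 1 reads in NSPs, 0, 0 and 4 at 24 h, 27, 40 and 53 at 72 h and 5, 6 and 8 at 1 week. The 72 h libraries overlapped none of the others without TNF. The log2 fold change was 4.63 ± 0.68 (SE) from 24 h to 72 h (edgeR adjusted p = 6.42e-05; 3.93 to 8.38 with single libraries left out, the highest without the third 24 h library), and -2.80 ± 0.51 (SE) from 72 h to 1 week (edgeR adjusted p = 0.00228). Untreated cells at 72 h had 2.47 ± 0.437 CPM (SD, n = 3), below the 6.33 ± 1.38 CPM (SD, n = 3) of cells with TNF at 24 h.

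Ccl2 had 21, 8 and 17 reads in NSPs, and 3, 1 and 3 at 1 week. Between them it was lower at 24 h (log2 -1.91 ± 0.53 SE, edgeR adjusted p = 0.00563), higher at 72 h than at 24 h (2.54 ± 0.50, edgeR adjusted p = 0.00101) and lower again at 1 week than at 72 h (-3.37 ± 0.53, edgeR adjusted p = 0.000613). At 72 h it was not called against NSPs (0.63 ± 0.39, edgeR adjusted p = 0.178), and the ranges overlapped. Without the third 24 h library the difference at 24 h against NSPs was -2.74 and that at 72 h against 24 h was 3.37, and both were called. At 24 h the range of 0.112 to 0.489 CPM overlapped that of NSPs, 0.439 to 1.33 CPM, and when only these 2 conditions entered the fit Ccl2 did not pass the filter. Ccl7 had 6, 2 and 1 reads in NSPs and 0, 0 and 1 at 1 week, a difference called by edgeR (adjusted p = 0.041) that was lost when the first NSP library (adjusted p = 0.246) or the first or second 1-week library (0.14 and 0.12) was left out.

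Cxcl12, the ligand of the progenitor receptor Cxcr4, was highest in NSPs, with 22, 13 and 16 reads. It had 3 reads in each of the 3 libraries at 72 h and 11, 8 and 9 at 1 week. The 72 h level was lower than in NSPs by a log2 difference of -2.35 ± 0.47 (SE, edgeR adjusted p = 0.00033). The differences at 1 week against NSPs (-0.95 ± 0.39 SE, edgeR adjusted p = 0.0433) and at 72 h against 24 h (-1.48 ± 0.52 SE, edgeR adjusted p = 0.045) lay just inside the threshold and were lost with DESeq2 (adjusted p = 0.101 and 0.0978), and each was also lost when any of 5 single libraries was left out. Between successive times without TNF, 4 of the 5 tested ligands were called at 72 h against 24 h, where 24.8% of all genes tested were called, and 3 of the 5 at 1 week against 72 h, where 6.63% were.

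Low counts kept the other 5 ligands from being tested, and their reads are given as a description. Cxcl2 had 0 reads in all 18 libraries, which allows up to 3 reads in a library, or 0.169 to 0.213 CPM as a mean by condition. Cxcl1 had 4, 0 and 0 reads with TNF at 24 h and 3, 1 and 1 with TNF at 72 h, and 0 in the 12 libraries without TNF. All its reads thus fell in treated cultures, the most of them in the first TNF library at each time.

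Ccl20, the attractant of Ccr6-bearing lymphocytes, had 2, 5 and 10 reads with TNF at 24 h. In all other libraries it had at most 1 read. Against 0 reads in the untreated 24 h libraries, the level was at least 1.7-fold higher, taking 3 reads per library as the floor. With TNF, the 24 h level was 18.7 times the 72 h level (1 read in all), with an exact 95% interval of 2.94 to 783 for counting error. When every gene with at least 5 counts in total was tested, Ccl20 with TNF at 24 h had an edgeR adjusted p of 0.052. It was called lower with TNF at 72 h than with TNF at 24 h (log2 -3.75, edgeR adjusted p = 0.0434). Ccl20 passed this filter through its 17 reads with TNF at 24 h, so both values are descriptions.

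Cxcl5 had 0 reads in the 3 NSP libraries, 3, 3 and 0 at 24 h and 11, 7 and 9 with TNF at 24 h, where the lowest treated library was above the highest untreated one. At 72 h it had 4, 4 and 2 reads without TNF and 2, 5 and 6 with it, in overlapping groups. At 1 week it had 0, 1 and 0. Under the same wider filter, Cxcl5 with TNF at 24 h had a log2 fold change of 2.01 (edgeR adjusted p = 0.174). Without TNF it was called higher than in NSPs at 24 h (edgeR adjusted p = 0.0259) and at 72 h (edgeR adjusted p = 0.00593), against 0 reads in NSPs. At 24 h no untreated library had more than 3 reads, the floor used here, so that call shows no difference beyond the floor. By the same floor the 72 h level was at least 1.25-fold higher.

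Ccl5 had between 1 and 9 reads in every library. It had 8, 8 and 8 reads without TNF at 24 h and 2, 4 and 7 with it, and then 5, 4 and 2 without TNF at 72 h and 9, 8 and 7 with it. The treated libraries were thus lower at 24 h and higher at 72 h, and neither difference passed under the wider filter (edgeR adjusted p = 0.522 and 0.337). Its lowest counts were in NSPs, with 5, 2 and 1, against which it was called higher at 24 h under that filter (log2 1.79, edgeR adjusted p = 0.0166).

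**Figure D4:**
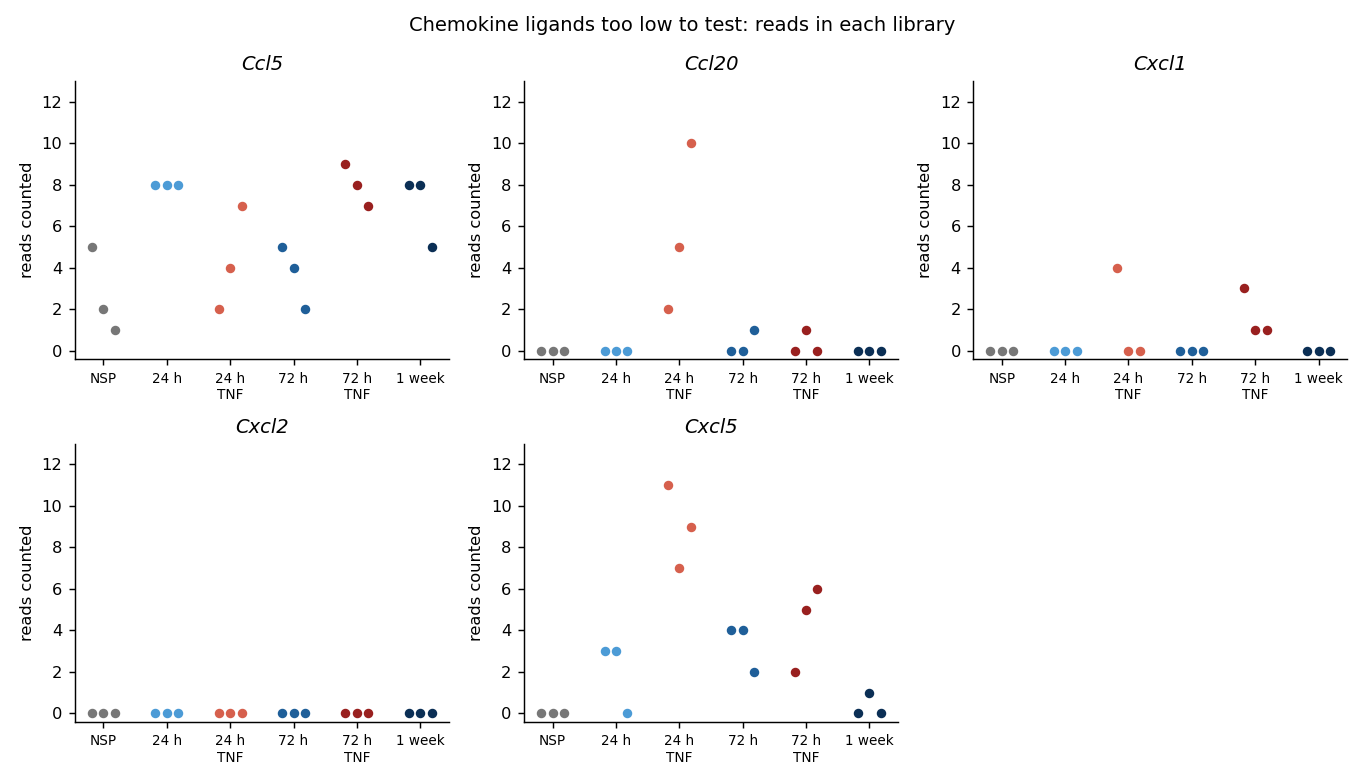
Reads in each library of the 5 ligands too low to test, on a linear axis shared by the panels, for the 6 conditions of 3 libraries. Points are libraries. Ccl20 reached 10 reads with TNF at 24 h and had at most 1 read elsewhere, and Cxcl2 had 0 in all.

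Microglia are a known source of chemokines, so their markers were read in the same libraries. Of 12 microglia and macrophage markers 3 were tested. Cd68 was called higher with TNF at 24 h (log2 2.06 ± 0.54 SE, edgeR adjusted p = 0.0409, groups not overlapping), a call that was lost without the first TNF library (1.22, edgeR adjusted p = 0.314). At 72 h it was not called (edgeR adjusted p = 0.179). P2ry12 had 28 to 35 reads at 24 h and 20 to 36 with TNF, Csf1r had 8 to 10 in both groups, and neither was called with TNF at either time. The other 9 did not pass the filter, and C1qa and C1qb had 0 reads in all 18 libraries. Trem2, Itgam and Adgre1 had at most 1 read in any library, Ptprc at most 3 and Tmem119 at most 4. Aif1 had 1 to 6 reads and Cx3cr1 1 to 9 reads in every library. The summed level of the 12 was 4.92 to 6.27 CPM at 24 h and 8.08 to 18 CPM with TNF, and 3.8 to 5.22 CPM at 72 h and 4.87 to 12.3 CPM with TNF. Cd68 gave 15.3 CPM of the 18 in the first 24 h TNF library. The summed fibroblast and mural markers were 1.74 to 2.28 CPM at 24 h and 2.83 to 5.92 CPM with TNF, with 1 of 6 tested, and endothelial markers were 4.61 to 4.97 and 2.71 to 5.19 CPM. At 72 h the fibroblast and mural sum was 2.48 to 3.74 CPM and 2.19 to 4.73 CPM with TNF, and the endothelial sum was 5.68 to 6.87 CPM and 1.8 to 3.07 CPM with TNF. Of the 3 endothelial markers tested, Kdr was called lower with TNF at 72 h (log2 -2.27, edgeR adjusted p = 0.00318). The 4 oligodendrocyte markers summed to 14.9 to 20.3 CPM at 24 h and 7.56 to 7.98 CPM with TNF, and to 4.66 to 4.99 CPM at 72 h and 3.21 to 4.69 CPM with TNF. Neuron markers summed to 1413 to 2080 CPM over all libraries, nearly all of it Map2. Rbfox3, a far lower neuron marker, was called lower with TNF at 72 h (log2 -1.86, edgeR adjusted p = 0.0124), which was lost without the first TNF library (edgeR adjusted p = 0.0713). The part of these cell types in the results was not tested. In bulk samples such as these, a change in the number of cells of a type and a change in RNA per cell cannot be told apart.

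Beyond the 10, a list of 25 other chemokine ligands held only 4 that could be tested (Ccl25, Ccl28, Cxcl14 and Cxcl16). By edgeR 0 of the 4 were called with TNF at either time. At 24 h 0 had an unadjusted p under 0.05 and DESeq2 called 0, and at 72 h 2 did (Ccl25 and Ccl28) and DESeq2 called 1, Ccl28. This mucosal chemokine had 9.88 ± 2.84 CPM (SD, n = 3) with TNF and 6.34 ± 0.344 CPM (SD, n = 3) without it (edgeR adjusted p = 0.0711). Cxcl14 was lower after 1 week without TNF than in NSPs, at 0.474 against 4.25 CPM (log2 -3.18 ± 0.39 SE, edgeR adjusted p = 1.34e-06). Both were named after their values were seen.

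Of 18 chemokine receptors 6 could be tested, and Cxcr4 stood out among them. It had 81, 141 and 121 reads in NSPs and 1144, 1761 and 959 at 24 h, a log2 fold change of 3.73 ± 0.19 (SE, edgeR adjusted p = 1e-10). At 72 h, where the ligand Cxcl12 had 9 reads in all, Cxcr4 had 1563, 2492 and 3341. With TNF Cxcr4 was lower, by a log2 difference of -0.67 ± 0.17 (SE) at 24 h (edgeR adjusted p = 0.0306) and -0.97 ± 0.17 (SE) at 72 h (edgeR adjusted p = 0.000845), in groups that did not overlap. The 24 h call was lost without the first TNF library (-0.59, edgeR adjusted p = 0.111). It was the only one of the 6 receptors called with TNF. Ackr3, the other receptor that binds Cxcl12 and clears it, was at 65.7 CPM at 72 h against 18.7 in NSPs (log2 1.81 ± 0.19 SE, edgeR adjusted p = 2.01e-07) and was not called with TNF (edgeR adjusted p = 0.374 at 24 h and 0.266 at 72 h).

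The receptors of the ligands that rose with TNF were scarcely present. Ccr2, the receptor of Ccl2 and Ccl7, had 0 to 3 reads per library, and Cxcr3, the receptor of Cxcl10, had 0 in all 18. Cx3cr1, the receptor of Cx3cl1, had 1 to 9 reads. These 3 were chosen for their ligands. Of 5 genes for chemokine processing 3 were tested and edgeR called 0 with TNF. At each time 1 of them, Mmp2, had an unadjusted p under 0.05, and DESeq2 called it at 24 h only. The fractalkine sheddase Adam10 was highest at 24 h, at 308 ± 40 CPM (SD, n = 3) against 129 ± 26 CPM (SD, n = 3) in NSPs (log2 1.26 ± 0.16 SE, edgeR adjusted p = 4.74e-06). The other, Adam17, was not called at 24 h against NSPs (-0.27 ± 0.14 SE, edgeR adjusted p = 0.115) and was lower than in NSPs at 72 h (-0.36, edgeR adjusted p = 0.0361) and 1 week (-0.52, edgeR adjusted p = 0.00334). Ackr3 and Adam10 were named after their values were seen.

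Finally, for each tested ligand the 3 genes with the most similar profile were found by Pearson's r of log2 CPM over the 18 libraries, among 16451 genes with a mean of at least 1 CPM. The libraries share 6 conditions, so r is a description. Ccl7 was most like Ccl2 (r = 0.96), then Snx16 (0.89) and Stx11 (0.88), and Ccl2 was most like Snx16 (0.91), Lcn2 (0.88) and Vcam1 (0.86). Cxcl10 was most like Slc39a4 (0.95), Steap4 (0.94) and C3 (0.93). Cx3cl1 was most like Jcad (0.95), Mllt3 (0.93) and Rnd1 (0.93), and Cxcl12 like Me1 (0.93), Gfpt1 (0.86) and Ap1ar (0.86).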

How the data were processed

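RNA-sequencing was performed by the authors on 18 cultures, 3 in each of 6 conditions, with ribosomal RNA removed and stranded paired-end libraries. Per the labels, the reads were processed with FastQC, Trim Galore, STAR, SAMtools and featureCounts on mm10, and the deposited values are raw counts per gene without normalization. Tool versions, whether strand was used in counting and how multi-mapping reads were treated are not given in the sources used here. The authors ran DESeq2 for their own comparisons. Groups were taken from the sample titles. The name of 1 of the 72 h columns carries the number 4, which no sample title has. It was used as a 72 h library without a replicate number. RNA quality is given by the labels as a range over all samples, so its part in any result was not tested.

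The 10 ligands were found through GENCODE M21, which named 54723 of 54838 genes. No library was a copy of another: a chi-square test between replicates gave 3.71 to 55.4 per degree of freedom over 18 pairs. Counts were fitted with edgeR 4.0.16 (limma 3.58.1, R 4.3.3): TMM normalization, genes kept by filterByExpr (minimum count 10) by condition, and the quasi-likelihood test with all 18 libraries in one model of condition means, in 9 comparisons. Adjusted p-values are Benjamini-Hochberg over 20067 genes, with a threshold of 0.05. The common biological coefficient of variation was 0.18. The SE of a log2 fold change was derived from its F statistic. CPM use TMM-scaled library sizes, and 2 was the prior count for log2 CPM. Floors of 3 reads and 95% intervals from counts cover counting error only, since no molecular identifiers are described for these reads.

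Same-numbered libraries deviated together in the comparison of TNF at 72 h with TNF at 24 h (correlations 0.291, 0.255 and 0.266), so a replicate block was fitted there as an alternative, and it changed no call of a ligand. Alternatives were DESeq2 1.42.0, RLE scaling, other filters on low counts, fits on only the groups compared, replicate blocks, and leaving out each library in turn. The scripts were tested on simulated counts. Named were all 10 ligands, genes of other lists called with TNF at 24 h or 72 h averaging 1 CPM or more, and the 3 genes most like each tested ligand. The ligands, gene lists and motifs were chosen with earlier results of these data known. Promoters came from a RefSeq table, which was searched in Python 3.11.15.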

Additional observations from a re-analysis of the deposited data

Results flagged for a closer look

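The TNF difference changed between 24 h and 72 h for Ccl2, with an interaction of -5.23 on the log2 scale. Its counts with TNF were 399, 380 and 415 at 24 h and 70, 65 and 70 at 72 h, and those without TNF were 2, 2 and 6 at 24 h and 11, 20 and 37 at 72 h. The same test gave -3.84 for Cxcl10, with 123, 67 and 106 reads at 24 h and 95, 252 and 205 at 72 h with TNF, against 0, 0 and 4 and 27, 40 and 53 without it. The edgeR adjusted p-values were 0.000255 and 0.0444, and both treated groups were higher than the untreated ones at both times.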

How the results depend on the processing

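Over all alternatives to the results of single ligands, 540 of 608 values kept their direction and their side of the threshold, and 11 turned in sign, none of them called. With no filter on low counts, the number of ligands called was 5 for TNF at 24 h, 4 at 24 h and 4 at 72 h against NSPs, and 5 for TNF at 72 h against TNF at 24 h. Of the 37635 genes then tested, 1374, 10863, 11718 and 3184 were called in these comparisons. With at least 5 counts in total the number was 4 at 24 h against NSPs, Ccl5 and Cxcl5 being added. Cxcl5 was also called at 72 h against NSPs and Ccl20 for TNF at 72 h against TNF at 24 h. Of the 30529 genes then tested, 10691, 11694 and 2415 were called in these comparisons. With at least 10 counts in every library, a filter that by construction removes all ligands but Cx3cl1, the number was 0 for TNF at 24 h, for the interaction and for TNF at 72 h against TNF at 24 h, and 1 in each of the other comparisons. Of the 14274 genes then tested, 504, 56 and 2060 were called in the first 3 of these and 1097 to 8712 in the others. With only the groups compared in the fit it was 1 for the interaction and 1 at 24 h and 1 at 1 week against NSPs, where Ccl2 then failed the filter, as Ccl7 did for TNF at 72 h. The causes of these changes were otherwise not tested. Leaving out single libraries gave 1 to 2 ligands for the interaction, beside 25 to 133 of all genes tested, and 2 to 4 at 1 week against NSPs, beside 10301 to 11551. It turned the sign of Cxcl12 with TNF at 24 h (-0.54 to 0.10), with TNF at 72 h (-0.31 to 0.31) and in the interaction (-0.07 to 0.59), of Cxcl10 at 24 h against NSPs (-3.50 to 0.97) and of Ccl7 at 72 h against NSPs (-0.50 to 0.92).

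With the replicate block and the third 72 h library unpaired, the ligands called were 1 for the interaction (Ccl2, with Cxcl10 lost at -3.95, edgeR adjusted p = 0.146) and 2 at 1 week against NSPs, and Cxcl12 with TNF at 72 h was -0.10. Of the 20067 genes tested, 24 were then called for the interaction and 11676 at 1 week against NSPs. Ccl7 with TNF at 72 h had an adjusted p of 0.0578 or 0.144 with the block, depending on that library, and 0.0536 or 0.0611 at 1 week against NSPs. Outside the comparison of the 2 TNF groups, same-numbered libraries did not all correlate above 0.1 or formed fewer than 3 pairs, so the block there rests on a shared number alone.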
